A study of Mus musculus with 7 samples.

Results

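The genes described here are 35 markers of intestinal tuft cells, taken from a list by symbol and followed through RNA from cells sorted as Paneth cells. All 35 were found among the 52550 genes of the count files, and all 35 passed the filter on low counts that left 17449 genes for testing. The 4 DSS libraries came from mice given 3% dextran sulfate sodium (DSS), a polymer that injures the gut epithelium, in drinking water for 7 days and killed 3 days after its removal. The 3 water libraries came from mice kept on plain water. Total counts ran from 23179147 to 32451653 in DSS libraries and from 23175708 to 25894328 in water libraries. All mice carried the Lgr5-EGFP-IRES-CreERT2 allele, a reporter in intestinal stem cells, on a C57BL/6J background. Mice were 12, 10, 10 and 10 weeks old in DSS 1 to 4 and 12, 12 and 10 weeks old in water 1 to 3. RNA was isolated on November 9, 16, 16 and 24 for DSS 1 to 4 and on November 14, 14 and 21 for water 1 to 3. Small-intestinal crypts were dissociated, and live cells were gated on CD24 and side scatter, with CD117 (the Kit protein) also stained. Blood and vessel cells were gated out by TER119, CD31 and CD45. Whether every library comes from its own animal is not stated in so many words. The p-values set the difference between the groups against the spread among libraries, whatever its source.

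Tuft cells are rare chemosensory cells of the gut epithelium. Receptors on their surface sense metabolites and parasites in the lumen, and a signalling cascade shared with taste cells releases calcium inside the cell and opens the cation channel Trpm5. Tuft cells answer with the cytokine interleukin 25, leukotrienes, prostaglandins and acetylcholine, and the transcription factor Pou2f3 is required for them to form. They too carry CD24, the surface protein used in the sort.

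The tuft cell genes were not uniformly higher after DSS: they were high in 2 of the 4 DSS libraries and near the water level in the other two. Their summed level was 1210.0, 2171, 2172 and 1145 TMM CPM in DSS 1 to 4, against 1186, 1295 and 1218 TMM CPM in water 1 to 3, where TMM CPM are counts brought to a common library size (CPM) with trimmed-mean scaling factors (TMM). DSS 2 and DSS 3 lay far above the rest, and DSS 1 and DSS 4 lay within and just below the water range. The group means were 1674 ± 575 TMM CPM in DSS (SD, n = 4) and 1233 ± 55.9 TMM CPM in water (SD, n = 3). DSS 2 and DSS 3, whose RNA was isolated on day 16 of November, averaged 1.76 times the water mean, and DSS 1 and DSS 4 averaged 0.955 times it. As a share of all counts the 35 genes took 0.118%, 0.227%, 0.248% and 0.128% in DSS 1 to 4. In water 1 to 3 they took 0.108%, 0.116% and 0.112%. By this share, which uses no TMM factors, DSS 1 and DSS 4 were above all 3 water libraries, unlike in TMM CPM. The 95% Wilson intervals, which cover counting error only, ran from 0.226% to 0.229% in DSS 2 and from 0.246% to 0.250% in DSS 3, and the highest upper bound of the other 5 libraries was 0.130% in DSS 4. In RNA from a sorted population, more tuft cells and more RNA per tuft cell cannot be told apart.

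Gene by gene the libraries split the same way. The median level of the 35 genes relative to the water mean was 0.985, 1.75, 1.72 and 0.952 in DSS 1 to 4, against 0.946, 1.05 and 0.986 in water 1 to 3. DSS 2 and DSS 3 were the 2 highest of the 7 libraries for 28 of the 35 genes, a pattern that 9.12% of all 17449 genes showed. For 19 of the 35 each of the pair was at least 1.5 times the highest other library, which held for 51 of 17449 genes, or 0.292%. Members made up 37.3% of those 51 genes.

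**Figure D1:**
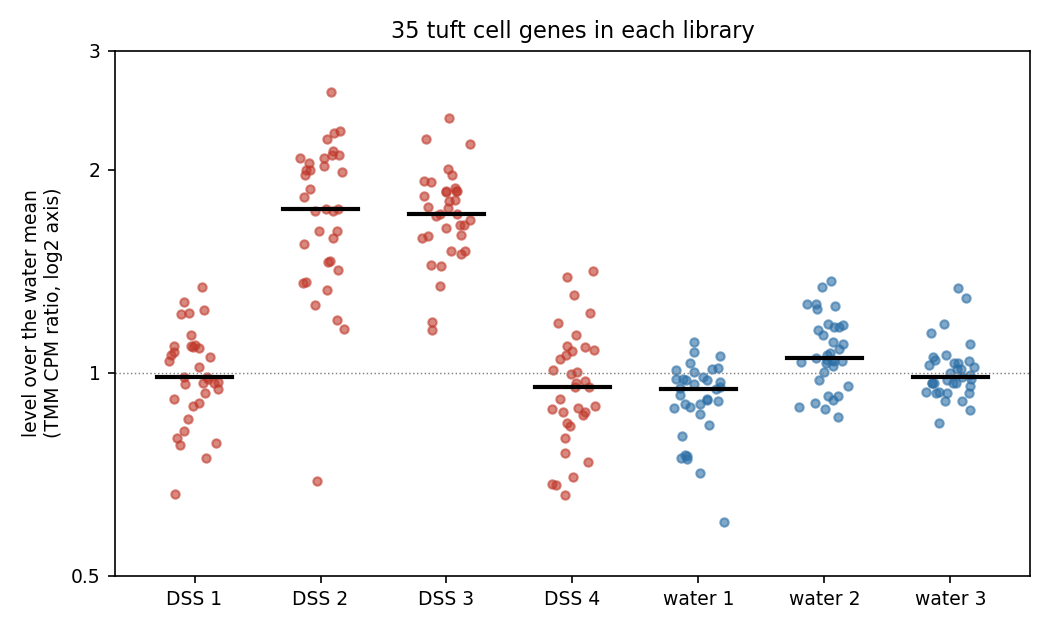
Level of each of 35 tuft cell genes in each library, as a ratio of TMM CPM to the mean of the 3 water libraries (log2 axis); each point is a gene and the black line is the median. The medians of DSS 2 and DSS 3 lie at 1.75 and 1.72, and those of the other 5 libraries lie between 0.946 and 1.05.

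Set against the water libraries singly, DSS 3 was above all 3 for 33 genes and DSS 2 for 31, where 31.6% and 30.6% of all genes were. DSS 1 and DSS 4 were above all 3 water libraries for 8 and 7 genes, where 24.5% and 28.2% of all genes were. In DSS 4, 13 of the 35 were below all 3 water libraries, against 28.9% of all genes, and 5 were in DSS 1, against 24.7%. A level of at least 1.5 times the water mean was reached by 24 genes in both DSS 2 and DSS 3. It was reached by 0 genes in DSS 1 or DSS 4. How many of all genes reached it was not counted, so these counts describe the members only.

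Members differed widely in level. Per kilobase of exon, averaged over the 7 libraries, Rgs13 at 45.2, Sh2d6 at 40.4, Avil at 31.4, Kctd12 at 26.7, Alox5ap at 25.6 and Trpm5 at 24.1 TMM CPM per kb were highest. Tas1r3 at 0.693 and Il25 at 0.562 TMM CPM per kb were lowest. Counts were ample for most: 28 of the 35 had at least 100 counts in every library, and the lowest count was 7, for Il25.

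The 5 transcription factors all had DSS 2 and DSS 3 as their 2 highest libraries. Pou2f3 (ENSMUSG00000032015.16, chr9:43123939-43210369, minus strand), the factor that specifies tuft cells, measured 23.8, 49.3, 43.6 and 29.0 TMM CPM in DSS 1 to 4, against 23.9, 20.0 and 22.8 TMM CPM in water 1 to 3. Both libraries of the pair were above every other library, and DSS 4 came next. Its log2 change, DSS over water, was 0.72 ± 0.23 (SE) with an unadjusted p of 0.0132 and an adjusted p of 0.207 in edgeR's quasi-likelihood test. That was the lowest adjusted p among the 35 genes. Spib, an Ets-family factor, measured 47.2, 86.0, 82.8 and 45.8 TMM CPM in DSS 1 to 4, against 41.0, 46.7 and 41.6 TMM CPM in water 1 to 3. Hmx3, a homeobox factor, measured 5.95, 12.3, 9.34 and 6.41 TMM CPM in DSS 1 to 4, against 5.71, 5.86 and 5.96 TMM CPM in water 1 to 3. Hmx2, its neighbour on chromosome 7 and a related homeobox factor, measured 5.86, 11.9, 8.35 and 5.40 TMM CPM in DSS 1 to 4, against 5.76, 5.14 and 5.79 TMM CPM in water 1 to 3. In Hmx2 and Hmx3 the water libraries lay close together and DSS 2 was higher than DSS 3. Gfi1b, a zinc-finger repressor, measured 2.69, 4.12, 4.81 and 2.61 TMM CPM in DSS 1 to 4, against 2.01, 2.55 and 2.06 TMM CPM in water 1 to 3. Gfi1b was 1 of 2 tuft cell genes, with Plcg2, in which all 4 DSS libraries were above all 3 water libraries; 7.40% of all genes showed that order, and 7.51% showed the opposite order, as 0 of the 35 did.

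Pou2f3 belongs to the POU family, whose members recognise the octamer ATGCAAAT, so the letters before the start sites of the members were read. RefSeq (GRCm38.p6) gave 36 windows, from 250 bases before to 50 bases after a start site, for 32 of the 35 members. ATGCAAAT, on either strand, was in 3 of the 36 windows (8.33%) and in 570 of 32851 windows of the same length over all genes (1.74%). Its first 7 letters, ATGCAAA, a motif that every octamer match also holds, were in 5 member windows (13.9%) and in 1520 of all windows (4.63%). A match is a description of the letters and not a binding site. All 5 member windows with a match are shown: 3 with the whole octamer, Avil with the shorter match on both strands and Ffar3 with the shorter match on the opposite strand. Each is the 250 bases before the RefSeq start site, 5′ to 3′ on the gene's strand, with the matches in capitals: Kctd12 at chr14:102982638-102982887 (minus strand), Hpgds at chr6:65144731-65144980 (minus strand), Sucnr1 at chr3:60081619-60081868 (plus strand), Avil at chr10:127000459-127000708 (plus strand) and Ffar3 at chr7:30856179-30856428 (minus strand). The RefSeq start of Hpgds lies inside the gene as the count files draw it.
Kctd12: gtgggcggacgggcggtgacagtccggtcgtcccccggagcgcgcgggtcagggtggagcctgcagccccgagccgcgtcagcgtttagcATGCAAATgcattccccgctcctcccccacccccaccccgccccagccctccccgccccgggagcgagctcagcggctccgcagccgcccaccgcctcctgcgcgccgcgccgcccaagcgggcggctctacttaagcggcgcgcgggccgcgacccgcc
Hpgds: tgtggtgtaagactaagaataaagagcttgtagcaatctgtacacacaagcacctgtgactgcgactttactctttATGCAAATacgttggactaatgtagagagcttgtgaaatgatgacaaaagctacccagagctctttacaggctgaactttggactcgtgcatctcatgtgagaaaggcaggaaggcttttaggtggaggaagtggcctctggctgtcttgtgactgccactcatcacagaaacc
Sucnr1: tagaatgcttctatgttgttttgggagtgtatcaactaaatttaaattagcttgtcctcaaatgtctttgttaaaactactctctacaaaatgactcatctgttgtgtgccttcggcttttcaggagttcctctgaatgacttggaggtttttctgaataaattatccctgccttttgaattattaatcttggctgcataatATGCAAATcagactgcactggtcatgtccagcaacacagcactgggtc
Avil: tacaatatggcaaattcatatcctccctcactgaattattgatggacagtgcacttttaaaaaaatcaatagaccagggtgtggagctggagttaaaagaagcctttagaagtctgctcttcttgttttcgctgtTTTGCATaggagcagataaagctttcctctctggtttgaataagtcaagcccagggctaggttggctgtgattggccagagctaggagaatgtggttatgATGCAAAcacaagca
Ffar3: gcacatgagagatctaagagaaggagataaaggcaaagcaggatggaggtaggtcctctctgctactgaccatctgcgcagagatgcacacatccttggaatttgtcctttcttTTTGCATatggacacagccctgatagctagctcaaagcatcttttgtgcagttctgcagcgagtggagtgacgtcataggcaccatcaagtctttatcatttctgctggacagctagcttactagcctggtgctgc
The octamer began 160 bases before the start site in Kctd12, 174 in Hpgds and 48 in Sucnr1. In Avil the 7-letter matches began 15 bases before the start site on the gene's strand and 115 bases before it on the opposite strand. In Ffar3 the match on the opposite strand began 136 bases before the start site. Kctd12, Hpgds and Avil each had DSS 2 and DSS 3 well above the other 5 libraries, while in Sucnr1 DSS 2 lay only just above DSS 4 and in Ffar3 the pair lay only just above water 2.

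The 4 receptors were less uniform. Sucnr1, which senses succinate, measured 2.87, 3.83, 5.84 and 3.64 TMM CPM in DSS 1 to 4, against 1.96, 3.32 and 2.60 TMM CPM in water 1 to 3. DSS 3 stood highest, and the other libraries of both groups ran into each other. Il17rb, a subunit of the receptor for interleukin 25, measured 8.99, 14.4, 13.9 and 7.92 TMM CPM in DSS 1 to 4, against 10.7, 14.1 and 11.2 TMM CPM in water 1 to 3. DSS 1 and DSS 4 were the lowest libraries for Il17rb, and DSS 2, DSS 3 and water 2 were nearly level. Ffar3, a receptor for short-chain fatty acids, measured 5.69, 10.4, 10.3 and 5.40 TMM CPM in DSS 1 to 4, against 5.35, 9.51 and 6.46 TMM CPM in water 1 to 3. For Ffar3 the pair was highest, with water 2 close behind. Tas1r3, the subunit shared by sweet and umami taste receptors, measured 2.20, 3.27, 2.71 and 2.85 TMM CPM in DSS 1 to 4, against 1.96, 1.78 and 2.31 TMM CPM in water 1 to 3. DSS 2 was highest, and DSS 4 was above DSS 3.

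The cascade downstream of the receptors had 7 members, and 6 of them had the pair as highest libraries. Their summed level was 351, 602, 584 and 328 TMM CPM in DSS 1 to 4, against 345, 339.6 and 340.0 TMM CPM in water 1 to 3. Trpm5 (ENSMUSG00000009246.14, chr7:143069153-143094642, minus strand), the calcium-activated cation channel at the end of the cascade, measured 129, 227, 219 and 114 TMM CPM in DSS 1 to 4, against 127, 136 and 129 TMM CPM in water 1 to 3. Its log2 change was 0.40 ± 0.23 (SE; edgeR adjusted p = 0.447). Rgs13, which speeds the switching-off of G proteins, measured 60.6, 104, 109.8 and 57.0 TMM CPM in DSS 1 to 4, against 65.1, 66.9 and 60.0 TMM CPM in water 1 to 3. Itpr2, the channel that releases calcium from internal stores, measured 63.1, 82.5, 96.1 and 66.0 TMM CPM in DSS 1 to 4, against 64.4, 49.9 and 60.0 TMM CPM in water 1 to 3. In Trpm5 and Rgs13 DSS 1 and DSS 4 lay within or under the water range, and in Itpr2 they overlapped its upper end. Plcg2, a phospholipase that makes the messenger opening Itpr2, measured 55.8, 102, 91.3 and 53.0 TMM CPM in DSS 1 to 4, against 46.6, 51.6 and 49.0 TMM CPM in water 1 to 3. Plcb2, the phospholipase of taste cells, measured 40.5, 84.0, 62.9 and 35.1 TMM CPM in DSS 1 to 4, against 39.0, 32.7 and 38.8 TMM CPM in water 1 to 3. Gnat3, the G protein alpha subunit gustducin, measured 1.41, 1.47, 3.23 and 2.12 TMM CPM in DSS 1 to 4, against 1.92, 1.97 and 2.52 TMM CPM in water 1 to 3. Gnat3 departed from the rest: DSS 3 was its highest library and DSS 2 was below all 3 water libraries. Gng13, the gamma subunit that pairs with gustducin, averaged under 1 TMM CPM and ranged from 0.516 to 1.71 TMM CPM in DSS and from 0.535 to 1.01 TMM CPM in water. Of its exon bases 51.6% overlap Chtf18 on the opposite strand, and the counting used no strand, so reads of these genes cannot be told apart there.

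**Figure D2:**
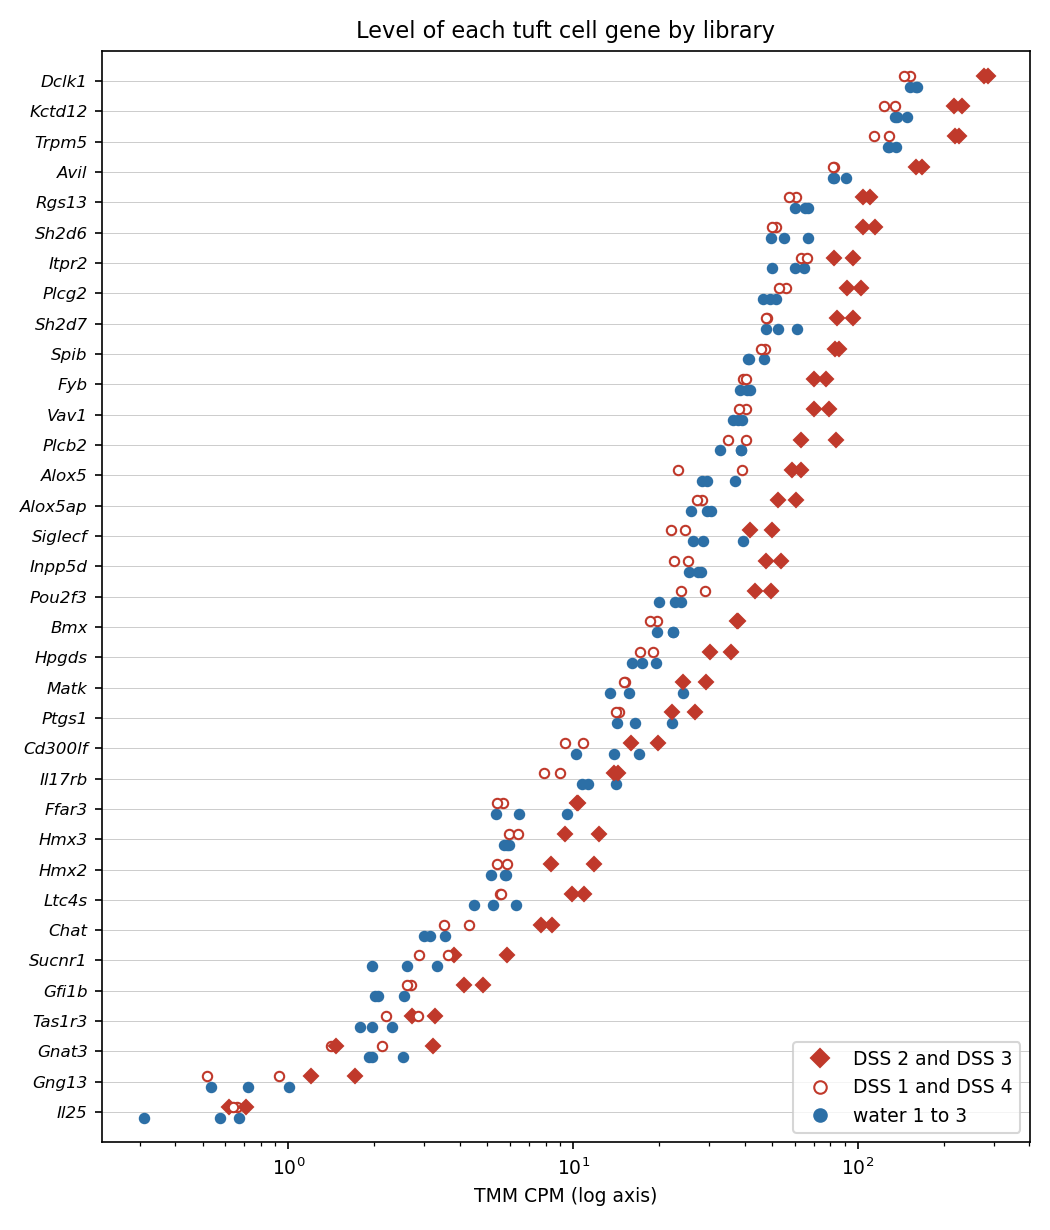
TMM CPM (log axis) of each tuft cell gene in each library, ordered by mean level; diamonds are DSS 2 and DSS 3, open circles are DSS 1 and DSS 4, and blue points are the 3 water libraries. Diamonds lie furthest right in 28 of 35 rows, and no open circle reaches 1.5 times the water mean.

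Among the 7 genes for secreted signals, 5 had the pair highest. Chat (ENSMUSG00000021919.7, chr14:32408203-32465909, minus strand), which makes acetylcholine, measured 4.32, 8.42, 7.69 and 3.52 TMM CPM in DSS 1 to 4, against 2.99, 3.56 and 3.15 TMM CPM in water 1 to 3. Its log2 change of 0.90 ± 0.31 (SE) was the largest of the 35 but did not pass over all genes (edgeR adjusted p = 0.227). Without DSS 2 and DSS 3 it was 0.28 ± 0.18. The leukotriene genes went with the pair. Alox5, the lipoxygenase that begins leukotriene synthesis, measured 39.2, 63.0, 58.8 and 23.3 TMM CPM in DSS 1 to 4, against 28.4, 36.9 and 29.5 TMM CPM in water 1 to 3. For Alox5 the other DSS libraries lay on either side of the water range, DSS 1 above it and DSS 4 below it. Alox5ap, the membrane protein that hands the substrate to Alox5, measured 28.3, 60.3, 52.4 and 27.3 TMM CPM in DSS 1 to 4, against 26.0, 30.5 and 29.6 TMM CPM in water 1 to 3. Ltc4s, the synthase of cysteinyl leukotrienes, measured 5.55, 10.9, 9.93 and 5.59 TMM CPM in DSS 1 to 4, against 5.22, 6.29 and 4.49 TMM CPM in water 1 to 3. Of the exon bases, 13.3% in Alox5ap and 26.4% in Ltc4s overlap a predicted gene on the opposite strand. Hpgds, a prostaglandin D synthase, measured 17.1, 35.8, 30.3 and 19.0 TMM CPM in DSS 1 to 4, against 17.4, 16.1 and 19.5 TMM CPM in water 1 to 3. Ptgs1, the constitutive cyclooxygenase, measured 14.5, 22.3, 26.8 and 14.1 TMM CPM in DSS 1 to 4, against 14.2, 22.3 and 16.5 TMM CPM in water 1 to 3. In Ptgs1 water 2 and DSS 2 were level, so the pair was not set apart. Il25, the cytokine through which tuft cells call innate lymphoid cells, averaged under 1 TMM CPM and ranged from 0.618 to 0.707 TMM CPM in DSS and from 0.312 to 0.671 TMM CPM in water.

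The 2 cytoskeletal members were among the most abundant. Dclk1 (ENSMUSG00000027797.15, chr3:55242364-55539068, plus strand), a microtubule-associated kinase widely used to stain tuft cells, measured 152, 276, 285 and 145 TMM CPM in DSS 1 to 4, against 160.1, 162 and 153 TMM CPM in water 1 to 3. Its log2 change was 0.44 ± 0.24 (SE; edgeR adjusted p = 0.420). Avil, the actin-binding protein advillin, measured 82.2, 167, 159.7 and 82.0 TMM CPM in DSS 1 to 4, against 82.4, 90.9 and 82.0 TMM CPM in water 1 to 3. In both genes DSS 1 and DSS 4 lay at or under the lower end of the water range, and DSS 2 and DSS 3 were at least 1.71 times every other library.

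Of 8 genes for other signalling proteins, 7 had the pair highest. Kctd12, an auxiliary subunit of GABA-B receptors, measured 135, 217, 233 and 124 TMM CPM in DSS 1 to 4, against 135, 137 and 149 TMM CPM in water 1 to 3. Sh2d6, an adaptor protein, measured 51.4, 104, 115 and 50.0 TMM CPM in DSS 1 to 4, against 49.5, 66.7 and 55.1 TMM CPM in water 1 to 3. Sh2d7, a related adaptor, measured 47.8, 84.7, 96.1 and 47.5 TMM CPM in DSS 1 to 4, against 47.4, 60.9 and 52.4 TMM CPM in water 1 to 3. In these 3 genes DSS 2 and DSS 3 were clear of the rest, and DSS 3 was the higher. Of the exon bases of Kctd12, 62.8% overlap a predicted antisense gene with 0 counts in these files. Fyb, an adaptor best known from T cells, measured 39.6, 70.2, 77.3 and 40.5 TMM CPM in DSS 1 to 4, against 40.7, 41.9 and 38.6 TMM CPM in water 1 to 3. Vav1, a guanine nucleotide exchange factor, measured 40.3, 78.8, 70.2 and 38.2 TMM CPM in DSS 1 to 4, against 37.9, 39.2 and 36.5 TMM CPM in water 1 to 3. Inpp5d, a phosphatidylinositol phosphatase, measured 25.3, 53.7, 47.7 and 22.6 TMM CPM in DSS 1 to 4, against 25.6, 28.2 and 27.4 TMM CPM in water 1 to 3. Fyb and Vav1 are also expressed by T cells, and 10 T cell markers summed to 1.06, 0.736, 0.653 and 0.486 TMM CPM in DSS 1 to 4, against 0.625, 0.625 and 0.503 TMM CPM in water 1 to 3. Of those 10, Cd3g and Cd7 were at 0 in every library, and Lck, the 1 marker that passed the filter, measured 0.882, 0.618, 0.550 and 0.486 TMM CPM in DSS 1 to 4, against 0.535, 0.384 and 0.503 TMM CPM in water 1 to 3. The part of T cells in the level of Fyb and Vav1 was not tested. Bmx, a Tec-family tyrosine kinase, measured 19.7, 37.7, 37.8 and 18.6 TMM CPM in DSS 1 to 4, against 19.7, 22.5 and 22.5 TMM CPM in water 1 to 3. Matk, a kinase that restrains Src-family kinases, measured 15.2, 24.3, 29.3 and 15.03 TMM CPM in DSS 1 to 4, against 13.5, 24.4 and 15.7 TMM CPM in water 1 to 3. In Matk water 2 was level with DSS 2 and above water 1 and water 3.

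The 2 surface proteins of the immunoglobulin superfamily showed the least difference between groups, with a median log2 change of 0.083. Siglecf, a sialic-acid-binding lectin also found on eosinophils, measured 24.6, 41.7, 49.9 and 22.1 TMM CPM in DSS 1 to 4, against 26.4, 39.6 and 28.6 TMM CPM in water 1 to 3. Cd300lf, the receptor that murine norovirus uses on tuft cells, measured 10.8, 16.0, 19.8 and 9.35 TMM CPM in DSS 1 to 4, against 10.2, 17.1 and 13.9 TMM CPM in water 1 to 3. In both, water 2 was far above water 1 and close to DSS 2. Across all 35 genes the pair was not highest in 7, namely Ptgs1, Tas1r3, Gnat3, Matk, Cd300lf, Il17rb and Il25, and in 5 of those water 2 was above DSS 2 or DSS 3.

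Tested as DSS against water, 0 of the 35 genes passed an adjusted p of 0.05 in edgeR's quasi-likelihood test, and 0 of all 17449 genes did (0%). At an unadjusted p under 0.05 there were 9 members, where 15.7% of all genes passed. Of the 35 estimates 33 were above 0 and 2 below, Il17rb at -0.085 ± 0.22 and Gnat3 at -0.050 ± 0.30 (SE), and the median was 0.49 against -0.0015 over all genes. Adjusted p-values of members ran from 0.207 to 0.974. Other tools and scalings made some calls: DESeq2 called 1 member, Pou2f3 (adjusted p = 0.0287), in a fit where 0.989% of 35081 genes were called higher and 0.847% lower. Without a low-count filter edgeR called Pou2f3, Plcg2 and Spib, where 0.684% of genes were called higher and 0.573% lower. Scaling by library totals alone called 6 members (Chat, Gfi1b, Itpr2, Plcg2, Pou2f3 and Spib), and there the median over all genes was itself shifted to 0.23 and 12.1% of all genes were called higher and 0.160% lower.

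The direction rested on DSS 2 and DSS 3. Without them the median log2 change of members was -0.048, with 15 estimates above 0 and 20 below, and the log2 ratio of the summed level was -0.067, against 0.44 with all 7 libraries. Among the libraries whose file names give lane 6, DSS 4 against water 1 to 3, the median was -0.079, with 13 estimates above 0 and 22 below. Among 10-week mice, DSS 2, DSS 3 and DSS 4 against water 3, it was 0.59. In the lane 6 and 10-week subsets 1 group is a lone library, assumed to vary like the libraries of the other group. A count of calls there has no replicate check on that side. The titles of DSS 2, DSS 3 and water 3 hold the same number, which no label explains. Within those 3 libraries the median was 0.83, and edgeR called Alox5 (adjusted p = 0.0446) and Spib (adjusted p = 0.0463), against 0.0926% of 18363 genes called higher and 0.223% lower, with water 3 as a lone library assumed to vary like the DSS libraries. The day of RNA isolation and whatever else DSS 2 and DSS 3 share cannot be told apart, since day 16 holds these DSS libraries only.

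**Figure D3:**
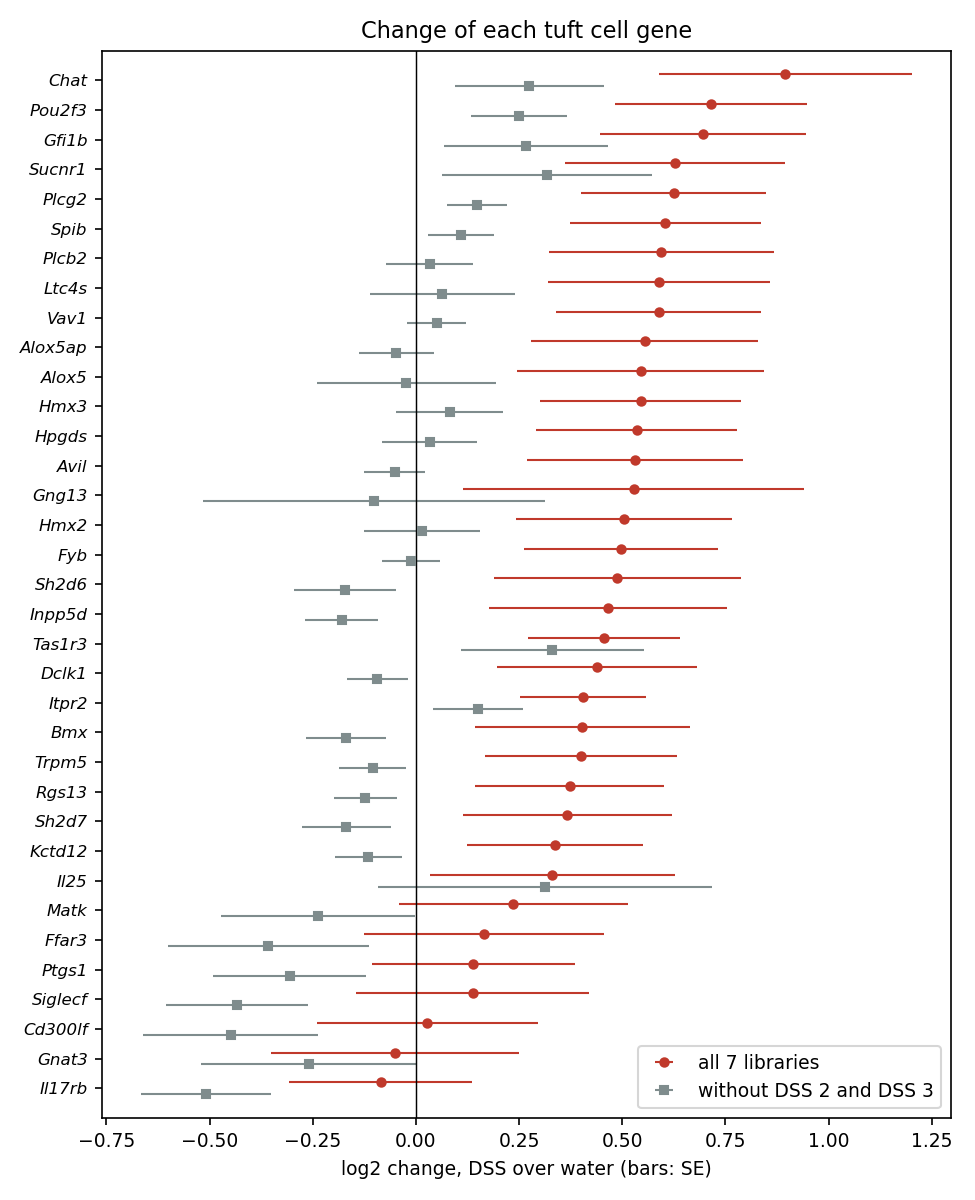
Log2 change of each tuft cell gene, DSS over water, with its standard error, from all 7 libraries (circles) and without DSS 2 and DSS 3 (squares). With all libraries 33 of 35 estimates lie above 0, and without the pair 15 do.

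Variation among libraries was shared between the genes and lay mostly inside the DSS group. The SD of the log2 level had a median over members of 0.51 in DSS and 0.14 in water, and it was larger in DSS for 34 of the 35. Over the 17378 genes above 0 in every library those medians were 0.16 in DSS and 0.13 in water, and 57.9% were more variable in DSS. The difference between the group means accounted for a median of 25.4% of a member's variance on the log2 scale, against 18.4% over all genes. The variation was smaller when each gene was taken as a share of the 35-gene sum: the median SD over the 7 libraries was 0.44 for the log2 level and 0.18 for the log2 share, and the share varied less than the level in 32 genes. Because each gene is part of the sum, some of that drop follows from the division itself, most for the abundant genes. Trpm5 took between 9.98% and 10.7% of the sum in every library, and Dclk1 between 12.5% and 13.5%. Dclk1, Kctd12 and Trpm5 together made up between 33.2% and 34.4% in DSS and between 33.6% and 35.6% in water. The share was the more variable measure in Gnat3, Il25 and Tas1r3, all of low level. Between DSS 2 and DSS 3 themselves most of the genes differed little. The ratio of DSS 2 to DSS 3 had a median of 1.04 and ranged from 0.456 in Gnat3 to 1.42 in Hmx2. It was within 1.2 times for 25 of 35 genes. How many of all genes lay that close was not counted.

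**Figure D4:**
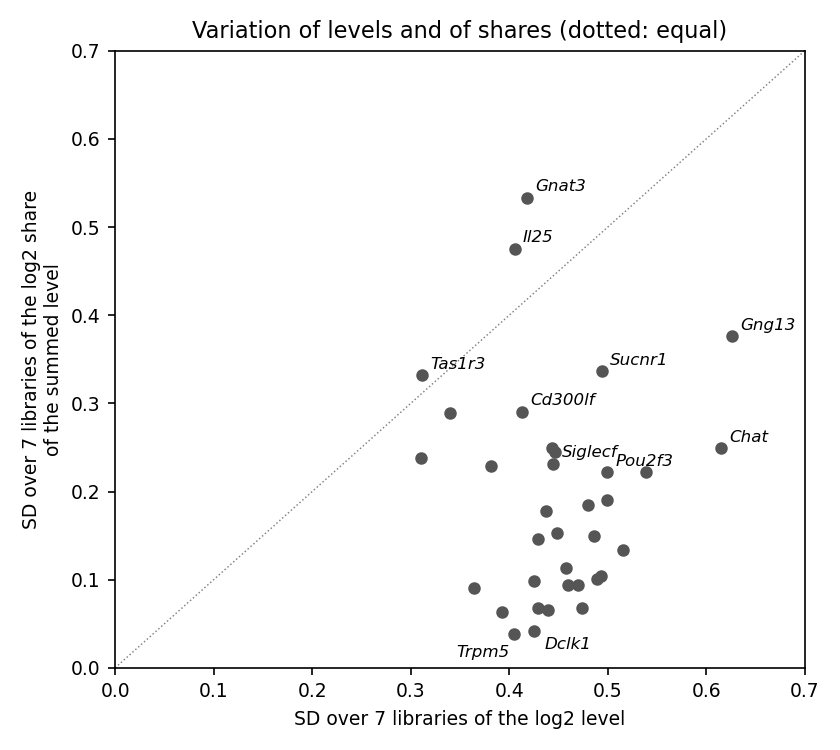
For each tuft cell gene, the SD over the 7 libraries of its log2 level (x axis) against the SD of its log2 share of the 35-gene sum (y axis), with the line of equality dotted. Of the 35 genes 32 lie under the line, with Trpm5 and Dclk1 lowest, and Gnat3, Il25 and Tas1r3 lie above it.

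The shares did show a smaller pattern of their own. In water 2 a group of 7 genes, Siglecf, Cd300lf, Matk, Ptgs1, Ffar3, Il17rb and Sh2d7, had its highest share of the sum of any library. These include all but Gnat3 of the 7 genes with the lowest estimates in the comparison of DSS with water, though a high level in water 2 itself lowers such an estimate. The group was seen in the data and was not tested.

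A second list of 41 genes reported in tuft cells was described beside the members. Of the 41, 38 were in the files and 30 were tested. Of the 30, 0 were called by edgeR, as were 0% of all genes. An unadjusted edgeR p under 0.05 was reached by 6, where 15.7% of all genes reached it. The median log2 change was 0.17, with 22 estimates above 0 and 8 below. DSS 2 and DSS 3 were the 2 highest libraries for 15 of the 30, against 9.12% of all genes. In 4 genes (Lrmp, Pik3r5, Pik3cg and 1810046K07Rik) each of the pair was at least 1.5 times every other library, against 0.292% of all genes. Pik3r5, a regulatory subunit of phosphoinositide kinase, measured 58.3, 113, 109.8 and 56.9 TMM CPM in DSS 1 to 4, against 57.5, 59.5 and 53.1 TMM CPM in water 1 to 3. The most abundant genes of the list, Cd24a, Atp2a3, Krt18 and Vil1, are made by other epithelial cells too and did not have this pattern to that degree. Vil1, encoding villin, measured 423, 435, 424 and 391 TMM CPM in DSS 1 to 4, against 421, 419 and 420.3 TMM CPM in water 1 to 3.

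The coactivators that work with Pou2f3 diverged. 1810046K07Rik (Pou2af2 in newer nomenclature) measured 8.46, 15.8, 13.6 and 8.77 TMM CPM in DSS 1 to 4, against 8.79, 8.02 and 8.05 TMM CPM in water 1 to 3, following the pair as Pou2f3 did. Colca2 (Pou2af3) measured 25.3, 23.6, 21.8 and 26.8 TMM CPM in DSS 1 to 4, against 33.3, 36.7 and 36.0 TMM CPM in water 1 to 3. All 4 DSS libraries were below all 3 water libraries for Colca2, with a log2 change of -0.54 ± 0.082 (SE; edgeR adjusted p = 0.123), and the pair was the lowest of all.

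Among markers of the other epithelial cell types the pair was rarely highest. It was highest for 0 of 14 Paneth cell, 25 enteroendocrine, 10 goblet cell and 11 enterocyte markers. The same held for 0 of 10 proliferation and 5 M cell markers, and for 1 of 10 stem cell markers. Over all 17449 genes the share was 9.12%, so lists this short would hold few such genes in any case. Paneth cell markers summed to 248757, 207818, 143171 and 147439 TMM CPM in DSS 1 to 4, against 290677, 317390 and 295777 TMM CPM in water 1 to 3. All 4 DSS libraries, both of the tuft-high pair included, were below all 3 water libraries in the Paneth cell sum. DSS 3 and DSS 4 were lowest, 1 of them in the pair and 1 outside it. Whether the lower Paneth cell sum is tied to the tuft cell level was not tested. Enteroendocrine markers ranged from 969 to 1873 TMM CPM in DSS and from 124 to 3571 TMM CPM in water, with water 1 at the low end and water 3 at the high end. Goblet cell markers ranged from 8690 to 14066 TMM CPM in DSS and from 10654 to 11920 TMM CPM in water. Markers of immune cells were scarce: the T cell sum was highest in DSS 1, and mast cell markers summed to between 1.28 and 3.13 TMM CPM in DSS and between 0.535 and 1.59 in water. Eosinophil and neutrophil markers summed to between 0.273 and 0.530 TMM CPM in DSS and between 0.336 and 0.580 in water, with Prg2, Ear2, Il5ra, S100a8 and Csf3r at 0 in every library. Macrophage and dendritic cell markers summed to between 3.33 and 3.85 TMM CPM in DSS and between 1.56 and 4.52 in water. Sums of 4 sparse lists were, like the tuft cell sum, highest in DSS 2 and DSS 3. B cell and plasma cell markers summed to 0.529, 1.18, 1.24 and 1.002 TMM CPM in DSS 1 to 4, against 1.16, 0.961 and 1.13 TMM CPM in water 1 to 3. Erythroid and platelet markers summed to 1.32, 2.92, 3.61 and 1.46 TMM CPM in DSS 1 to 4, against 0.848, 2.499 and 1.85 TMM CPM in water 1 to 3. Endothelial markers summed to 15.5, 18.0, 18.9 and 16.1 TMM CPM in DSS 1 to 4, against 15.2, 16.3 and 15.98 TMM CPM in water 1 to 3. Mesenchymal markers summed to 0.132, 0.383, 0.206 and 0 TMM CPM in DSS 1 to 4, against 0.0892, 0.0480 and 0.126 TMM CPM in water 1 to 3. Besides Fyb and Vav1, Siglecf, Cd300lf, Inpp5d, Alox5, Alox5ap, Plcg2, Spib, Hpgds, Ltc4s and Ptgs1 are also expressed by white blood cells. Gfi1b is also expressed by red cell and platelet precursors. The part of any other cell type in the level of the tuft cell genes was not tested.

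**Figure D5:**
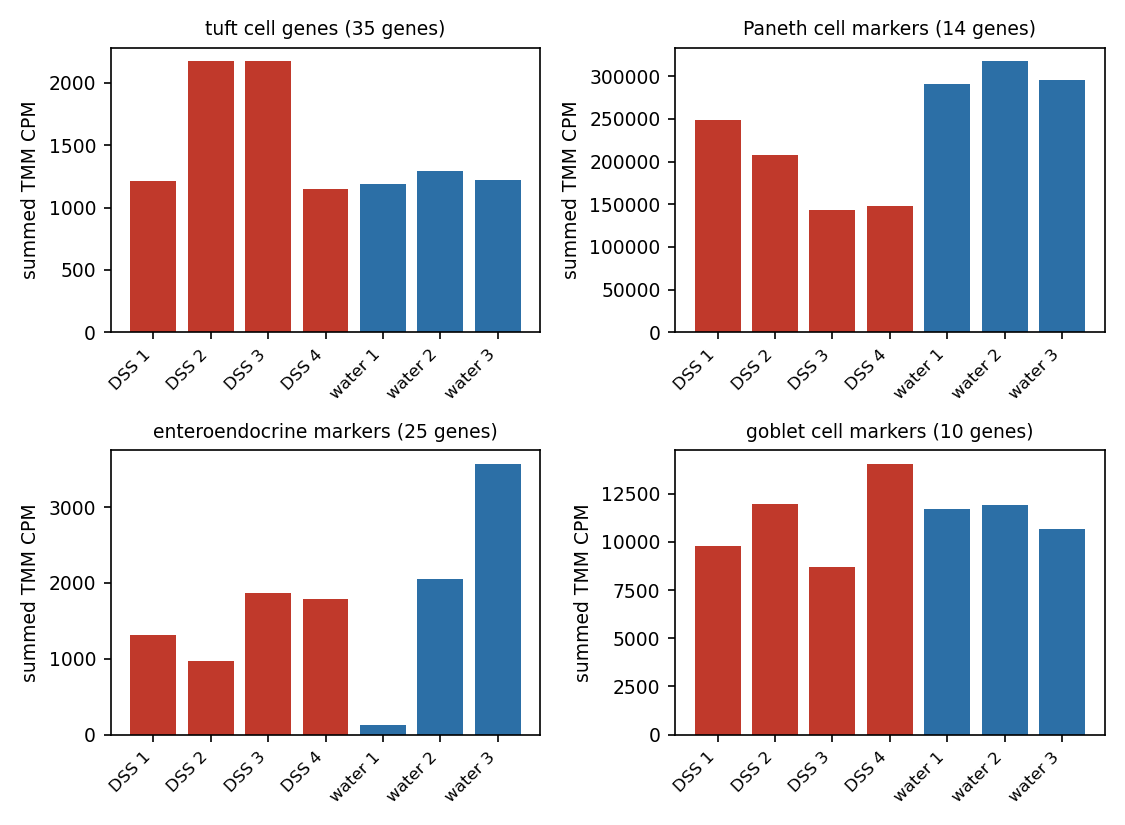
Summed TMM CPM in each library of the 35 tuft cell genes and of the Paneth cell, enteroendocrine and goblet cell marker lists, with DSS libraries in red and water libraries in blue; each panel has its own axis starting at 0. The tuft cell sum stands out in DSS 2 and DSS 3 (2171 and 2172 TMM CPM), and the other lists order the libraries differently.

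Neither gene for the proteins stained in the sort was called, but edgeR called 0 of all 17449 genes, so this sets neither gene apart. Kit averaged 276 ± 28.8 TMM CPM in DSS (SD, n = 4) and 261 ± 12.3 TMM CPM in water (SD, n = 3), and its log2 change was 0.079 ± 0.091 (SE; edgeR adjusted p = 0.726). Cd24a averaged 1858 ± 323 TMM CPM in DSS and 2179 ± 129 TMM CPM in water, with a log2 change of -0.23 ± 0.14 (edgeR adjusted p = 0.471). By library Cd24a was 1832, 2293, 1792 and 1513 TMM CPM in DSS 1 to 4, against 2066, 2319 and 2151 TMM CPM in water 1 to 3, and DSS 3 was not set apart from DSS 1. Lyz1, the Paneth cell lysozyme and the check of the sorted cell type, averaged 53078 ± 17964 TMM CPM in DSS and 103238 ± 4412 TMM CPM in water, far above any tuft cell gene in every library.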

How the data were processed

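Polyadenylated RNA was measured in 7 libraries of sorted cells, 4 DSS and 3 water. The authors deposited raw counts per gene, and per the file headers the counter was featureCounts 1.5.3, run on the exons of GENCODE release 15 with primary alignments, an overlap of at least 0.8 of a read and no strand option. DESeq2, featureCounts 1.5.2, STAR 2.5.3a and mm10 are listed by the submitters' processing notes. GENCODE release 21 supplied symbols for 52403 of 52550 identifiers and none for 147. Library totals were between 23179147 and 32451653 counts in DSS and between 23175708 and 25894328 in water. A gene with 3 counts is then at 0.0924 to 0.129 CPM.

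From the counts, edgeR 4.0.16 in R 4.3.3 kept 17449 genes (filterByExpr), scaled libraries by TMM (factors between 0.980 and 1.14 in DSS and between 0.899 and 0.922 in water) and compared DSS with water by the quasi-likelihood test without covariates. P-values were adjusted by Benjamini-Hochberg over all genes, with a threshold of 0.05. DESeq2 1.42.0 and limma 3.58.1 (voom) were alternatives, beside other scalings and filters, age as a covariate, and subsets by lane, age, title number and replicate. The fitting steps were tested on simulated data. Replicates were numbered in accession order and pair nothing. The lane of DSS 4 and the water libraries was 6 and that of DSS 1 and DSS 3 was 8 by the file names, and DSS 2 was merged.

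The members, the gene lists and the grouping of DSS 2 with DSS 3 by isolation day were chosen with earlier results of these data known. All 35 members were described, those averaging at least 1 TMM CPM in every library and the other two by range. For the second tuft cell list the rule named the 4 tested genes with the highest level, the coactivators Colca2 and 1810046K07Rik, and for the sort Kit, Cd24a and Lyz1. Lrmp, Pik3r5 and Pik3cg fall outside it and were named after their values were seen.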

Additional observations from a re-analysis of the deposited data

How the results depend on the processing

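With RLE size factors, TMM without Paneth cell markers and a filter of 1 CPM in 4 libraries (33 members tested), every summary value kept its direction and its number of calls. In edgeR 0 members and 0 of all genes were called; limma-voom, the age covariate and 10-week mice only also called 0 members and 0 genes. DESeq2 called 1 member and 644 genes, library totals alone 6 and 2135, no low-count filter 3 and 441, the libraries with a shared title number 2 and 58, and lane 6 only 0 and 9. In the subsets by age, title number and lane 1 group is a lone library, assumed to vary like the other group. Leaving out 1 library gave 0 members and between 0 and 303 genes, with 303 without DSS 1 and 9 without DSS 4. Leaving out 1 library moved the summed log2 ratio between 0.29 and 0.59 and the median between 0.31 and 0.65. The summed log2 ratio was -0.11 in lane 6 and -0.067 without DSS 2 and DSS 3, and the median was -0.079 and -0.048; both settings hold fewer DSS libraries. The age covariate gives no summed value, and its median was 0.30.

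In lane 6, 20 members turned to a log2 change below 0: Alox5 -0.45, Alox5ap -0.080, Avil -0.061, Bmx -0.22, Cd300lf -0.56, Dclk1 -0.14, Ffar3 -0.40, Fyb -0.0023, Gng13 -0.56, Hmx2 -0.050, Inpp5d -0.27, Kctd12 -0.19, Matk -0.25, Plcb2 -0.079, Ptgs1 -0.33, Rgs13 -0.17, Sh2d6 -0.20, Sh2d7 -0.18, Siglecf -0.52 and Trpm5 -0.20. Without DSS 2 and DSS 3, 18 did: Alox5 -0.024, Alox5ap -0.048, Avil -0.051, Bmx -0.17, Cd300lf -0.45, Dclk1 -0.093, Ffar3 -0.36, Fyb -0.012, Gng13 -0.10, Inpp5d -0.18, Kctd12 -0.12, Matk -0.24, Ptgs1 -0.31, Rgs13 -0.12, Sh2d6 -0.17, Sh2d7 -0.17, Siglecf -0.43 and Trpm5 -0.10. Estimates near 0 also changed sign elsewhere: Cd300lf to -0.10 with age and -0.056 in limma-voom, Gnat3 to 0.20 and Il17rb to 0.16 with library totals, and Il17rb to 0.10 and Il25 to -0.033 in 10-week mice. Within the shared title number, Il17rb changed to 0.33 and Il25 to -0.016. Leaving out 1 library, the range was -0.19 to 0.21 in Cd300lf, -0.0013 to 0.43 in Ffar3, -0.35 to 0.088 in Gnat3, -0.22 to 0.055 in Il17rb, -0.055 to 0.34 in Ptgs1 and -0.092 to 0.33 in Siglecf. The cause of these differences was not tested. No paired analysis was possible because the replicate numbers only follow accession order. Depth limits Il25, with as few as 7 counts. For Pou2f3 the adjusted p ran from 0.0211 to 0.645 over the alternatives, for Alox5 from 0.0446 to 0.989 and for Spib from 0.0463 to 0.839.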

Other observations

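Of the 51 genes whose level in DSS 2 and DSS 3 was at least 1.5 times that in every other library, 28 were on neither tuft cell list, and 8 of these averaged at least 10 TMM CPM. These 8 were named after their values were seen and get no test. Fkbp5, a cochaperone of the glucocorticoid receptor, measured 52.1, 97.9, 200.2 and 54.5 TMM CPM in DSS 1 to 4, against 52.3, 41.8 and 30.3 TMM CPM in water 1 to 3. In Fkbp5 DSS 3 was far above DSS 2. Among the tuft cell genes the ratio of DSS 2 to DSS 3 had a median of 1.04, but it was 0.456 in Gnat3. Pygl, the liver-type glycogen phosphorylase, measured 33.3, 70.4, 56.1 and 28.0 TMM CPM in DSS 1 to 4, against 31.9, 30.5 and 32.5 TMM CPM in water 1 to 3. Nebl, which binds actin, measured 22.3, 41.8, 40.7 and 20.1 TMM CPM in DSS 1 to 4, against 24.6, 22.9 and 23.6 TMM CPM in water 1 to 3. Adcy5, an adenylyl cyclase, measured 15.3, 32.6, 23.7 and 13.6 TMM CPM in DSS 1 to 4, against 13.2, 14.8 and 9.48 TMM CPM in water 1 to 3. Slco4a1, an organic anion transporter, measured 16.4, 32.4, 29.9 and 17.9 TMM CPM in DSS 1 to 4, against 15.2, 18.5 and 16.5 TMM CPM in water 1 to 3. In Pygl, Nebl, Adcy5 and Slco4a1 DSS 2 was above DSS 3 and both were clear of the other 5 libraries. The other members of the 8 were Tmem229a, Rgs22 and Map1a. Whether any of them is made by the same cells as the tuft cell genes was not tested.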
